A study of Mus musculus with 12 samples.

Results

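Zfand4, Slc25a33, Sh2b2, Pla2g3, Itgad, Cyp2d22, Agfg2, Sgk3, Rcan2 and Retsat were 10 genes of the mouse optic nerve, of 35275 genes in the count table. They were chosen on their high counts in the carboplatin libraries of these same data, so their difference between carboplatin and PBS is described here and not tested. None of the 10 was a member of the lists of relatives or of cell type markers used below. RNA with poly(A) tails was sequenced in 12 optic nerve libraries of mice that model neurofibromatosis type 1 (NF1), a disorder of lost Nf1 function in which gliomas of the optic pathway occur. There were 3 carboplatin libraries, from NF1 mice given a platinum drug that cross-links DNA. There were 3 selumetinib libraries, from NF1 mice given an inhibitor of the kinases MEK1 and MEK2, and 6 PBS libraries, from NF1 mice given phosphate-buffered saline as the control. All 3 groups carry the NF1 label, so no group without the disease model was analysed. The sources used here do not give the allele, any Cre driver, the dose, the schedule, the age, the sex or the number of animals per library. A p-value below therefore reflects only how far these libraries vary, and that variation may be technical.

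The 10 genes belong to different pathways. Sgk3, Sh2b2 and Rcan2 act in signalling: Sgk3 is an endosomal kinase related to AKT, Sh2b2 is an adaptor of the insulin receptor and of JAK2, and Rcan2 binds and inhibits the calcium-dependent phosphatase calcineurin. Pla2g3, Cyp2d22 and Retsat are enzymes of lipids, drugs and vitamin A, and Slc25a33 carries pyrimidine nucleotides into mitochondria. Zfand4 and Agfg2 code for less studied proteins, a zinc finger protein and a relative of an endocytic adaptor. Itgad codes for the alpha D subunit that pairs with the beta2 subunit to form a leukocyte integrin. The optic nerve holds the axons of retinal ganglion cells with the oligodendrocytes that myelinate them, astrocytes, microglia and vessels, so a bulk library mixes the RNA of all of these.

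The libraries held 21793052 to 33375754 counts. Markers of oligodendrocytes fitted the tissue label, with Mbp, which codes for myelin basic protein, at 8274 CPM (counts scaled to a common library size) or more in every library. The "Nerve cells" entry of the labels describes a mixed tissue here, because markers of glia, vessels and blood were all detected. Selumetinib 1, selumetinib 2 and PBS 1 stood apart. Mature oligodendrocyte markers took 3.14% of the counts of selumetinib 1, 2.23% of selumetinib 2 and 2.14% of PBS 1, against 5.16% to 8.45% in the other 9 libraries. Skeletal muscle markers took 5.63% of the counts of PBS 1 and at most 0.219% elsewhere. Neuron markers took 0.192% of the counts of selumetinib 1 and 0.211% of selumetinib 2, against at most 0.0569% elsewhere. Carboplatin 2 held the most pigment epithelium markers (0.122% of counts, against at most 0.0202% elsewhere), and carboplatin 1 and 3 held the most photoreceptor markers (0.0769% and 0.136%, against at most 0.0126% elsewhere). Fewer cells of a type and less RNA per cell cannot be told apart in such bulk samples.

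The stretches of DNA before the start sites of Zfand4, Slc25a33 and Retsat are shown because they are the ones of this set that hold any motif searched. Each is the 250 bases before a RefSeq start site (GRCm38.p6), written in the direction of transcription. Capitals mark the matches: a TATA box (TATAAA), an E-box (CACGTG) and the antioxidant core (TGACNNNGC, which reads GCNNNGTCA on the other strand).
Zfand4, chr6:116263969-116264218, plus strand: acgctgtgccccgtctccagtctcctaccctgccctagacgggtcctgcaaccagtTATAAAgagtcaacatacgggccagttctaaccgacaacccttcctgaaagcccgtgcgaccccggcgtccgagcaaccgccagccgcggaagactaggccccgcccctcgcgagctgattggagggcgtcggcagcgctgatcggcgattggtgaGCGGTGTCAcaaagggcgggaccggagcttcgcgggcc
Slc25a33, chr4:149774268-149774517, minus strand: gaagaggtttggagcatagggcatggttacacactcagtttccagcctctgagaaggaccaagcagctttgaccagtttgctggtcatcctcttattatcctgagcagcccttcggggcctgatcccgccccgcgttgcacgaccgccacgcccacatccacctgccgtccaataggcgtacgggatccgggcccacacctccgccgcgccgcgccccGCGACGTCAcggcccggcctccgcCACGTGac
Retsat, chr6:72598352-72598601, plus strand: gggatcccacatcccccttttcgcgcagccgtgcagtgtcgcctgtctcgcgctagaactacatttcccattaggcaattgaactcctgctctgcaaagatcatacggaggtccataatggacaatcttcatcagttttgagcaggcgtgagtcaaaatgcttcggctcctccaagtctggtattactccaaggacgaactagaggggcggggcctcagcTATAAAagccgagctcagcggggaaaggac
Slc25a33 had the E-box at positions -8 to -3 from its start and the antioxidant core, on the opposite strand, at -32 to -24. Retsat had a TATA box at -30 to -25. Zfand4 had the antioxidant core on the opposite strand at -38 to -30 and TATAAA at -194 to -189.

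Promoter windows, of 250 bases before to 50 after a start, were at hand for 6 of the 10 genes, 9 windows in all, with alternative starts for Zfand4 and Rcan2. Pla2g3, Itgad, Cyp2d22 and Sgk3 had no window. The glucocorticoid receptor motif was searched as its 6-base core (TGTTCT) and as the palindrome of that core, in which AGAACA and TGTTCT are 3 bases apart. Neither form occurred in the 9 windows on either strand, and nor did the FoxO motif GTAAACA. Over all 32817 windows, the palindrome occurred in 0.0091%, its core in 18.97%, GTAAACA in 3.65%, CACGTG in 7.15%, TGACNNNGC in 12.38% and TATAAA in 13.62%, where the core also counts inside the palindrome. A match is only a run of letters, and its absence says only that those letters are not in the window.

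All 10 genes were measured in every library and passed the filter on low counts. For all 10, every carboplatin library lay above every PBS library and every selumetinib library, a description of genes that were chosen on their high counts in carboplatin. Among the 18344 genes tested, 6.97% had every carboplatin library above every PBS library. The ratio of the carboplatin mean to the PBS mean ran from 18.8 for Zfand4 to 1.84 for Retsat, and 9 of the 10 were at least 2-fold. The set thus spans strong and moderate differences. The median log2 fold change of the 10 was 2.63, and that of all genes tested was -0.11. Of the 288 genes called higher in carboplatin, 12 had a larger log2 fold change than Zfand4 and 202 had a larger one than Retsat.

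**Figure D1:**
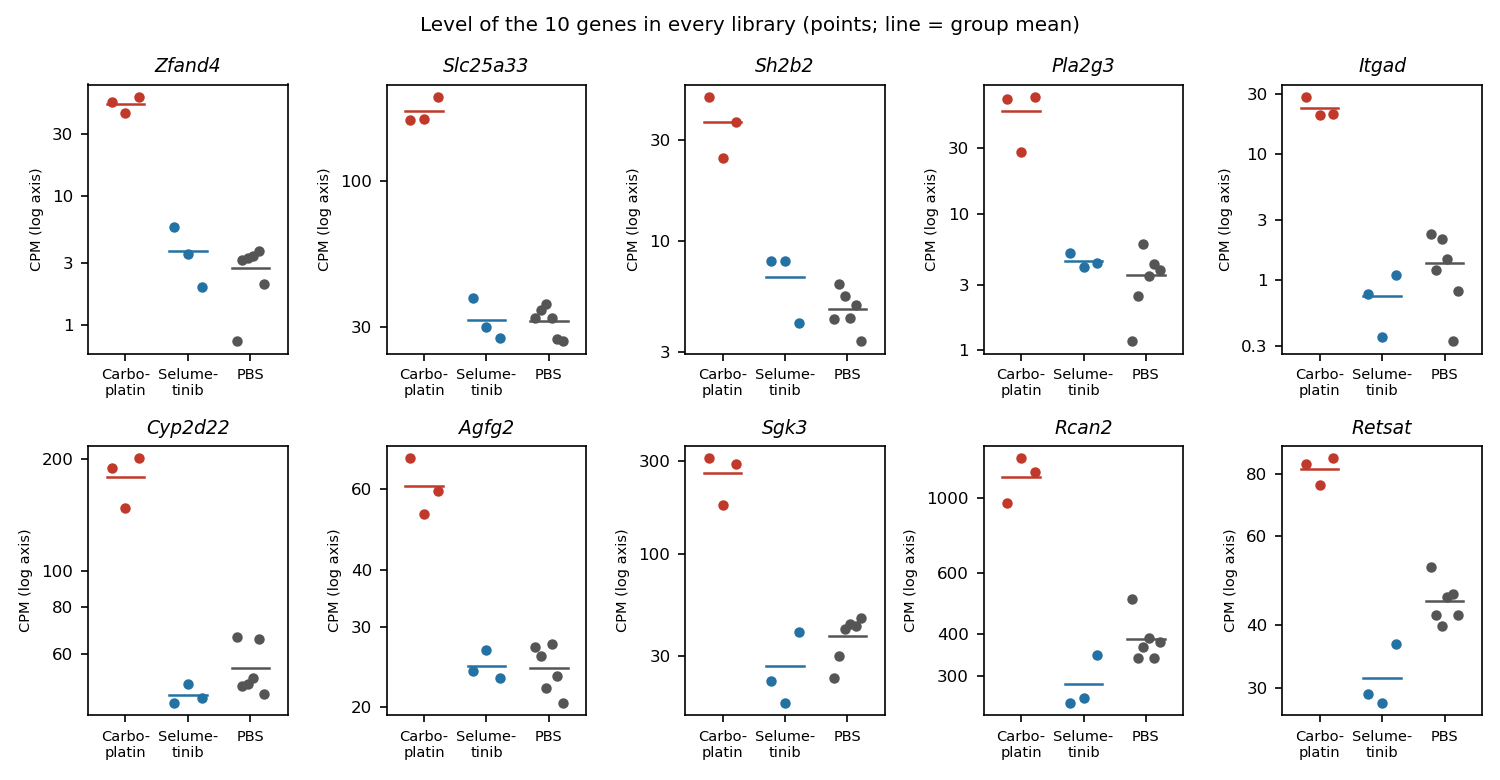
Level of each of the 10 genes in CPM (log axis), with 1 point per library and a line at the mean of the 3 carboplatin, 3 selumetinib and 6 PBS libraries. In each panel the carboplatin points lie above all others, by the widest margin in Itgad and Zfand4 and the narrowest in Retsat.

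Among the signalling genes, the kinase Sgk3 (chr1:9798107-9900845, plus strand) had 309, 179 and 288 CPM in carboplatin 1 to 3 and 22.2, 17.2 and 39.9 CPM in selumetinib 1 to 3. The PBS libraries ran from 23.1 to 46.7 CPM with a median of 41.9. Carboplatin was above both other groups, by a log2 fold change of 2.77 ± 0.29 over PBS (SE derived from the test, n = 3 and 6), and the selumetinib and PBS libraries overlapped. The lowest libraries, selumetinib 2, selumetinib 1 and PBS 1, were the ones with the lowest share of mature oligodendrocyte markers, and whether that share bears on Sgk3 was not tested. Carboplatin 2 had the most oligodendrocyte markers of any library (8.45%) and the least Sgk3 of the carboplatin group.

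The insulin receptor adaptor Sh2b2 (chr5:136218147-136246556, minus strand) had 48.0, 24.7 and 36.4 CPM in carboplatin 1 to 3 and 8.03, 8.02 and 4.11 CPM in selumetinib 1 to 3. In PBS it had 3.35 to 6.24 CPM with a median of 4.66. The carboplatin libraries did not overlap the others, though carboplatin 1 was 1.95 times carboplatin 2, and the log2 fold change over PBS was 2.92 ± 0.27. The calcineurin inhibitor Rcan2 (chr17:43801351-44039516, plus strand) had 962, 1305 and 1191 CPM in carboplatin 1 to 3 and 251, 259 and 346 CPM in selumetinib 1 to 3. Its PBS libraries ran from 339 to 505 CPM with a median of 371. PBS 1 was the highest control and still lay below the lowest carboplatin library, and the log2 fold change over PBS was 1.58 ± 0.18. Rcan2 was the one gene of the 10 that was highest in carboplatin 2.

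Of the enzymes, Pla2g3 (chr11:3488284-3499350, plus strand), a secreted phospholipase that releases fatty acids and lysophospholipids from membranes, had 69.0, 28.2 and 71.7 CPM in carboplatin 1 to 3. Selumetinib 1 to 3 had 5.17, 4.05 and 4.36 CPM, and PBS had 1.16 to 6.03 CPM with a median of 3.70. The groups of carboplatin and PBS were apart by a log2 fold change of 3.98 ± 0.42, while the carboplatin libraries differed from one another by 2.54 times, the widest such spread in the set. The cytochrome P450 gene Cyp2d22 (chr15:82370527-82380260, minus strand) had 190, 148 and 201 CPM in carboplatin 1 to 3, 44.3, 49.8 and 45.5 CPM in selumetinib 1 to 3 and 46.9 to 66.8 CPM in PBS (median 50.8). Its log2 fold change over PBS was 1.71 ± 0.15. Cyp2d22 belongs to the mouse CYP2D enzymes, which oxidise many drugs and amines. Retsat (chr6:72598475-72608425, plus strand), which saturates a double bond of retinol, had 83.6, 75.8 and 85.8 CPM in carboplatin 1 to 3, 29.2, 28.0 and 36.7 CPM in selumetinib 1 to 3 and 39.7 to 52.2 CPM in PBS (median 43.7). The log2 fold change of Retsat over PBS was 0.88 ± 0.12, the smallest of the 10, and its lowest carboplatin library was 1.45 times the highest of all other libraries.

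The nucleotide carrier Slc25a33 (chr4:149744036-149774277, minus strand) had 165, 167 and 199.7 CPM in carboplatin 1 to 3, 38.0, 30.04 and 27.5 CPM in selumetinib 1 to 3 and 26.7 to 36.3 CPM in PBS (median 32.3). The carboplatin libraries were close to one another and far from the rest, at a log2 fold change over PBS of 2.49 ± 0.14. Agfg2 (chr5:137650463-137684726, minus strand), whose protein has an ArfGAP domain and the FG repeats of nucleoporins, had 70.2, 53.1 and 59.5 CPM in carboplatin 1 to 3. Selumetinib 1 to 3 had 24.0, 26.7 and 23.2 CPM and PBS had 20.4 to 27.5 CPM (median 24.6), so these groups overlapped and carboplatin stood above both, by a log2 fold change over PBS of 1.32 ± 0.13.

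Zfand4 (chr6:116264222-116330302, plus strand), which codes for a protein with an AN1 zinc finger and a ubiquitin-like domain, had 52.6, 43.8 and 58.2 CPM in carboplatin 1 to 3. It had 5.66, 3.51 and 1.97 CPM in selumetinib 1 to 3 and 0.745 to 3.75 CPM in PBS (median 3.23), with PBS 1 the lowest of all 12. Its log2 fold change over PBS was 4.23 ± 0.43, the largest of the 10. The integrin gene Itgad (chr7:128154376-128223816, plus strand) had 28.4, 20.5 and 20.7 CPM in carboplatin 1 to 3, 0.778, 0.355 and 1.11 CPM in selumetinib 1 to 3 and 0.330 to 2.33 CPM in PBS (median 1.34). Of Itgad, 940 reads were counted in carboplatin 1 and 8 in PBS 5. Its log2 fold change over PBS was 4.06 ± 0.50, and its lowest carboplatin library was 8.79 times the highest of the others, the widest gap of the set.

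Within the carboplatin group, carboplatin 2 was the lowest of the 3 libraries for 8 genes, and carboplatin 1 for Slc25a33 and Rcan2. Carboplatin 2 also had the lowest photoreceptor marker share of the group (0.0036%) and the highest pigment epithelium share, and the part of these in the levels of the 10 genes was not tested. The photoreceptor share of carboplatin 2 was below that of PBS 2 (0.0126%). Over the marker lists as a whole, 4 of 98 genes were called higher in carboplatin by edgeR's quasi-likelihood test, namely Agt and Aldh1l1 of astrocytes and Lrat and Ttr of pigment epithelium. A further 7 were called lower, all 5 red blood cell markers with Ccr2 of monocytes and Opalin of oligodendrocytes. Over all 18344 genes tested, 288 were called higher and 95 lower, together 2.09%.

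**Figure D2:**
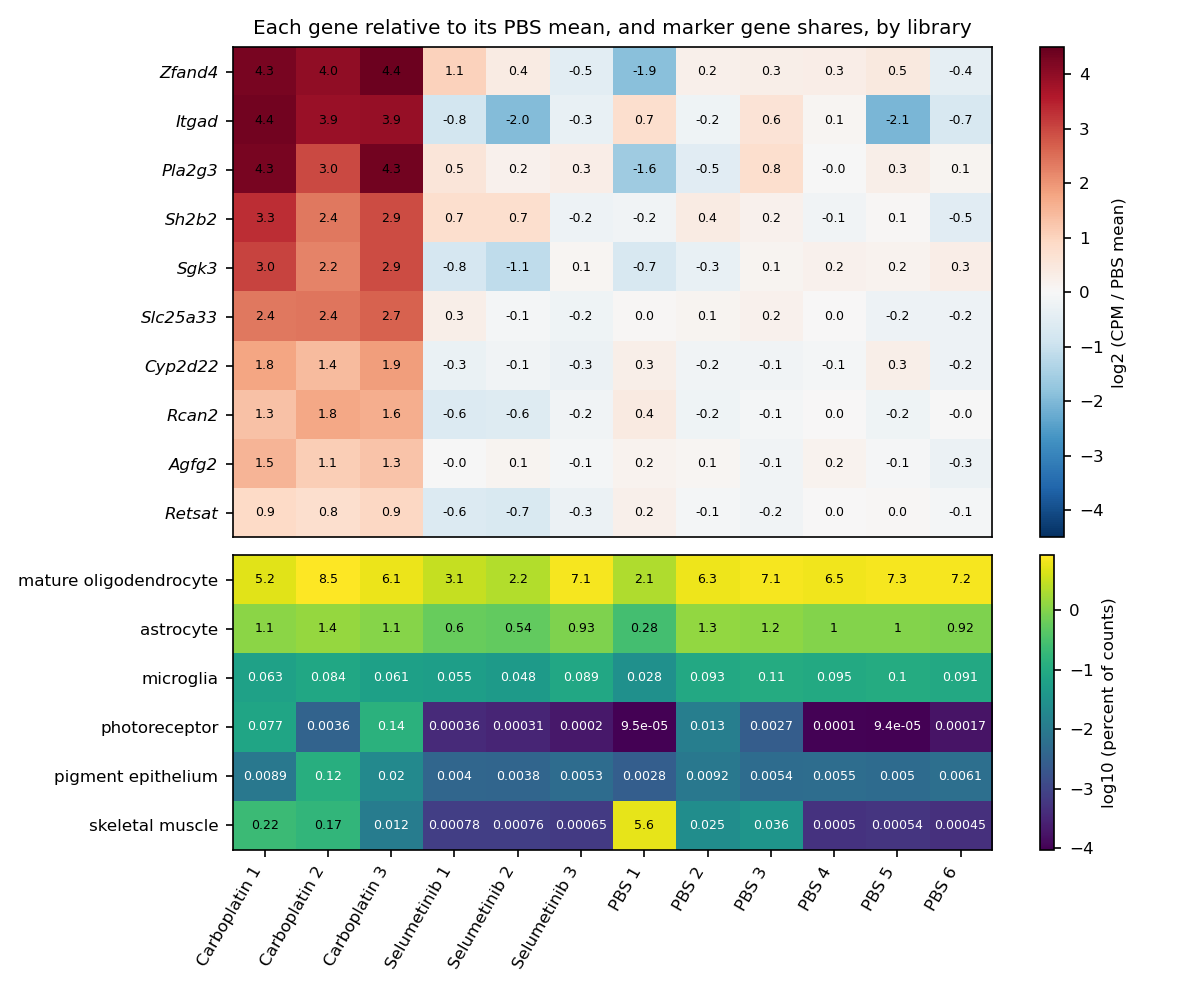
Upper panel: log2 of each gene's CPM over its PBS mean, genes by row and libraries by column. Lower panel: percent of each library's counts in marker genes of 6 cell types (colour on a log10 scale, percent printed in each cell). The 3 carboplatin columns are high for all 10 genes, whereas the marker shares differ within the groups, with muscle at 5.63% in PBS 1 and pigment epithelium at 0.122% in carboplatin 2.

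Levels between genes were compared per kilobase of exon (CPM per kb). Rcan2 was the most abundant of the 10 in every group, at 264 ± 39.9 in carboplatin, 65.2 ± 12.03 in selumetinib and 88.3 ± 14.1 CPM per kb in PBS (SD, n = 3, 3 and 6). In carboplatin, Slc25a33 (93.9) and Cyp2d22 (46.0) followed, each clear of its neighbours. From there Retsat (23.1), Sgk3 (18.1), Agfg2 (15.9), Zfand4 (12.3), Pla2g3 (11.99), Sh2b2 (6.72) and Itgad (5.15 CPM per kb) formed a run in which each gene's range overlapped that of the next. In PBS the order was Rcan2, Slc25a33 (16.7), Cyp2d22 (14.1), Retsat (12.6), Agfg2 (6.38), Sgk3 (2.64), Sh2b2 (0.885), Pla2g3 (0.759), Zfand4 (0.654) and Itgad (0.307 CPM per kb). There Slc25a33, Cyp2d22 and Retsat overlapped in turn, as did Sh2b2, Pla2g3, Zfand4 and Itgad. The genes with the largest ratios, Zfand4, Itgad and Pla2g3, were the least abundant of the set in PBS. The PBS level is the denominator of the ratio, so this link is partly built in.

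The choice of the genes names their counts in carboplatin and not those in selumetinib, so the contrast of selumetinib with PBS was tested, although the PBS libraries are shared with the contrast of carboplatin. In edgeR's quasi-likelihood test, adjusted over all genes by the Benjamini-Hochberg method, none of the 10 passed 0.05, and nor did any of the 18344 genes (0%). The estimates were higher in selumetinib for 5 genes and lower for 5, with a median log2 fold change of -0.11, against -0.088 over all genes tested. At an unadjusted p under 0.05 there were 2 of the 10, Rcan2 and Retsat, where 24.0% of all genes had such a p. DESeq2 called 1 of the 10 (Retsat), where it called 13.7% of all genes with an adjusted p. Limma voom with quality weights called 5 of the 10, where it called 55.4% of all genes.

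Retsat had the lowest p of the set (adjusted p 0.0884), at a log2 fold change of -0.51 ± 0.13. Its selumetinib libraries, at 29.2, 28.0 and 36.7 CPM, all lay below the lowest PBS library at 39.7 CPM, which held for 2.70% of all genes tested. Rcan2 had a log2 fold change of -0.44 ± 0.19 (adjusted p 0.185), and selumetinib 3 at 346 CPM lay inside the PBS range. Sgk3 had -0.52 ± 0.31 (adjusted p 0.308) and Itgad -0.89 ± 0.55 (adjusted p 0.322), each with overlapping groups. Cyp2d22 had -0.24 ± 0.15 (adjusted p 0.342).

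On the other side of zero, Sh2b2 had a log2 fold change of 0.49 ± 0.28 (adjusted p 0.288), Zfand4 0.44 ± 0.43 (adjusted p 0.526) and Pla2g3 0.34 ± 0.42 (adjusted p 0.623). Selumetinib 1 and 2 were above every PBS library for Sh2b2, while selumetinib 3 was not. Slc25a33 and Agfg2 were both near zero, Slc25a33 at 0.012 ± 0.14 (adjusted p 0.963) and Agfg2 at 0.014 ± 0.13 (adjusted p 0.953). With PBS 1, selumetinib 1 and selumetinib 2 left out, which leaves 1 selumetinib library assumed to vary like the rest, Zfand4 had -0.68 and Sh2b2 -0.26, so the sign of both turned.

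**Figure D3:**
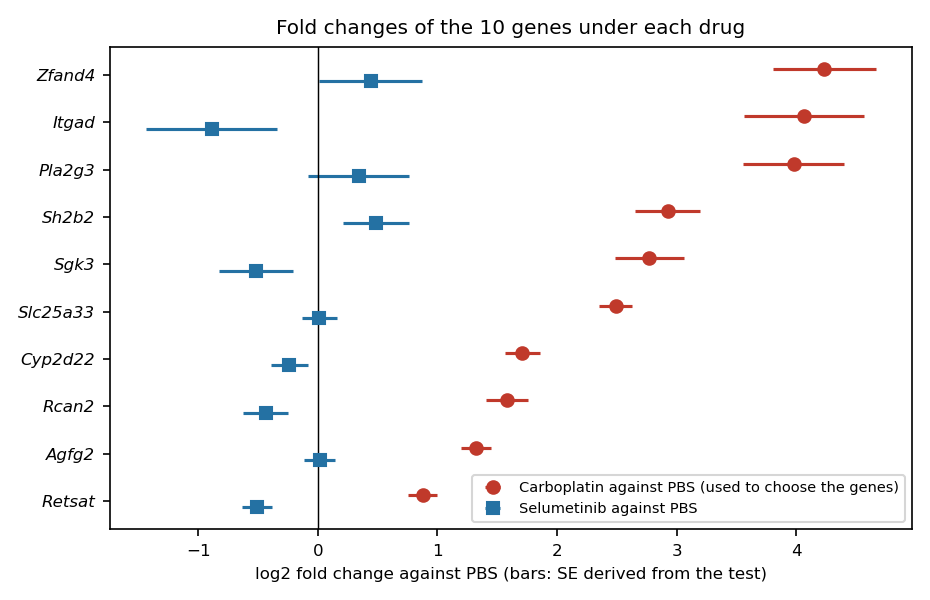
Log2 fold changes of the 10 genes against PBS for carboplatin (circles, the contrast used to choose the genes) and selumetinib (squares), with SEs derived from the test as bars. The carboplatin values run from 0.88 in Retsat to 4.23 in Zfand4, and the selumetinib values lie on both sides of zero, between -0.89 and 0.49.

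The close relatives and partners of the 10 genes were tested for the same contrast. None of them is one of the 10, but the lists were written with earlier results of these data known, so their counts are not independent support. Of 112 genes written into 10 lists, 109 were in the table and 94 were tested. In carboplatin against PBS, 6 of the 94 were called higher and 0 lower at an adjusted p under 0.05 (edgeR's quasi-likelihood test), where 2.09% of all 18344 genes were called. At an unadjusted p under 0.05 there were 10 higher and 4 lower, where all 18344 genes had 1489 higher and 1546 lower. The median log2 fold change of the relatives was 0.020, against -0.11 over all genes. The count depended on the tool and the libraries: limma voom called 34 relatives, where it called 29.8% of all genes, and leaving out carboplatin 3 left 0. DESeq2 called 8, where it called 8.99% of the genes with an adjusted p.

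Of the 15 kinases, activators and targets in the list of Sgk3, 2 were called higher. Sgk1, the stress- and hormone-responsive relative of Sgk3, had 1245, 816 and 1191 CPM in carboplatin 1 to 3, against 55.6 to 283 CPM in PBS (median 126). Its log2 fold change was 2.93 ± 0.46 with an adjusted p of 0.0110, and the groups did not overlap. Without carboplatin 3 this call was lost. Per kilobase, Sgk1 had 221 CPM per kb in carboplatin and 28.9 in PBS, where Sgk3 had 18.1 in carboplatin and 2.64 in PBS. In selumetinib, Sgk1 had 32.6, 28.9 and 58.5 CPM, a log2 fold change of -1.82 ± 0.52 (adjusted p 0.0963). Foxo3, a transcription factor that AKT and SGK kinases phosphorylate, had 140, 95.5 and 135 CPM in carboplatin 1 to 3 against 69.8 to 82.3 CPM in PBS, at a log2 fold change of 0.73 ± 0.14 (adjusted p 0.0238, lost in 5 of 12 fits that left out a single library). The other 13 genes of the list, Akt1, Akt2, Pdpk1, Mtor and Sgk2 among them, did not pass.

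Sgk3 shares its activators with AKT, and Sh2b2 acts upstream at the insulin receptor. Of the 11 SH2B and insulin signalling genes, 0 were called, with 2 higher at an unadjusted p under 0.05, DESeq2 calling 0 and limma voom 5, all higher. Pik3r1, a regulatory subunit of PI3-kinase, had a log2 fold change of 0.53 ± 0.24 (adjusted p 0.299). Of the 12 calcineurin, RCAN and NFAT genes, 0 were called by edgeR, with 0 at an unadjusted p under 0.05, 0 by DESeq2 and 5 by limma voom. The other 2 regulators of calcineurin did not follow Rcan2: Rcan1 had a log2 fold change of 0.18 ± 0.20 (adjusted p 0.687) and Rcan3 of -0.019 ± 0.29 (adjusted p 0.984).

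Relatives of the enzymes were called in 3 lists. Por, the reductase that passes electrons to microsomal P450 enzymes such as Cyp2d22, had 254, 183 and 229 CPM in carboplatin 1 to 3 against 97.7 to 166 CPM in PBS. The log2 fold change of Por was 0.82 ± 0.17 with an adjusted p of 0.0373, and the call was lost in 9 of 12 fits that left out a single library. The other electron donors tested, Cyb5r3, Cyb5a and Cyb5b, did not pass. Among the CYP2D relatives, Cyp2d9, Cyp2d10, Cyp2d12, Cyp2d34 and Cyp2d40 had 0 counts in all 12 libraries, and Cyp2d11 and Cyp2d26 had at most 0.0355 and 0.249 CPM in any library. Cyp2d22 thus held nearly all the counts of the CYP2D genes named here. How reads shared by near-identical CYP2D genes were counted was not examined, so low counts of the relatives may not mean low RNA.

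Pla2g5, another secreted phospholipase A2, was called among the 5 tested of its list, as were the retinoid enzymes Lrat and Rdh10 among 18. Pla2g5 had 7.23, 41.7 and 11.7 CPM in carboplatin 1 to 3 against 2.63 to 6.43 CPM in PBS (log2 fold change 2.40 ± 0.49, adjusted p 0.0314). Lrat, which makes retinyl esters, had 9.22, 141 and 15.8 CPM against 0.186 to 4.94 CPM (4.74 ± 0.98, adjusted p 0.0334). Rdh10, which oxidises retinol to retinal, had 21.1, 217 and 34.4 CPM against 12.2 to 22.6 CPM (2.56 ± 0.55, adjusted p 0.0391), and its groups overlapped. All 3 were highest in carboplatin 2, the library with 0.122% pigment epithelium markers, and Lrat is itself one of those markers. Without carboplatin 2 the log2 fold changes were 1.31 for Pla2g5, 2.603 for Lrat and 0.86 for Rdh10, and none was called. Over the 12 fits that left out a single library, the call was lost in 7 for Pla2g5, 8 for Lrat and 9 for Rdh10. Retsat and Pla2g3 differed from them here, as both were lowest in carboplatin 2 within the group.

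The lists of the remaining genes held no call. For the 9 beta2 integrins and ligands, edgeR called 0, with 2 lower at an unadjusted p under 0.05, and DESeq2 and limma voom called 2 lower each. Itgb2, the beta2 subunit with which the Itgad product pairs, had 24.9, 27.4 and 27.5 CPM in carboplatin 1 to 3 against 13.9 to 31.3 CPM in PBS, a log2 fold change of 0.0017 ± 0.29 (adjusted p 0.998). The alpha subunits beside Itgad on chromosome 7 had negative estimates: Itgam, the alpha M subunit of microglia and macrophages, had -0.80 ± 0.23 (adjusted p 0.107) and Itgax, the alpha X subunit, -1.43 ± 0.46 (adjusted p 0.144). Microglia markers took 0.0614% to 0.0841% of counts in carboplatin and 0.0283% to 0.106% in PBS. Border macrophage and monocyte markers took 0.0013% to 0.0040% in carboplatin and 0.0047% to 0.0089% in PBS. The microglia shares in carboplatin lay within the PBS range only because of PBS 1 (0.0283%), and below PBS 2 to 6 (0.0912% to 0.106%). The border macrophage and monocyte shares in carboplatin lay below those of every PBS library. The part of these cells in the level of Itgad was not tested.

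Of the 6 ZFAND zinc finger genes, the 10 mitochondrial nucleotide and cofactor carriers and the 4 tested partners of Agfg2, edgeR called 0, with 0 at an unadjusted p under 0.05, and DESeq2 called 0. Limma voom called 1 ZFAND gene and 4 carriers higher and 1 Agfg2 partner lower. Agfg1, the closest relative of Agfg2, had a log2 fold change of -0.16 ± 0.11 (adjusted p 0.508). The largest positive estimate among the carriers was that of Slc25a23, a calcium-dependent carrier of ATP, at 0.43 ± 0.21 (adjusted p 0.347). Zfand6, a regulator of ubiquitin signalling, had the smallest p of its list, with -0.44 ± 0.21 (adjusted p 0.324).

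In selumetinib against PBS, edgeR called 0 of the 94 relatives. An unadjusted p under 0.05 was found for 8 with a higher and 17 with a lower estimate. Over all 18344 genes these were 2575 and 1835. DESeq2 called 14 relatives and limma voom 60, against 13.7% and 55.4% called over all genes. The median of the relatives was -0.31, against -0.088 over all genes. Itgam had -1.03 ± 0.23 (adjusted p 0.0884), with the groups apart, and Itgb2 -0.82 ± 0.30 (adjusted p 0.144). Selumetinib 1 and 2, with 0.0554% and 0.0477% of counts in microglia markers, were the lowest libraries for Itgam and Itgb2. PBS 1 had the lowest share of these markers (0.0283%) and 87.7 CPM of Itgam, and the part of the share in either gene was not tested.

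**Figure D4:**
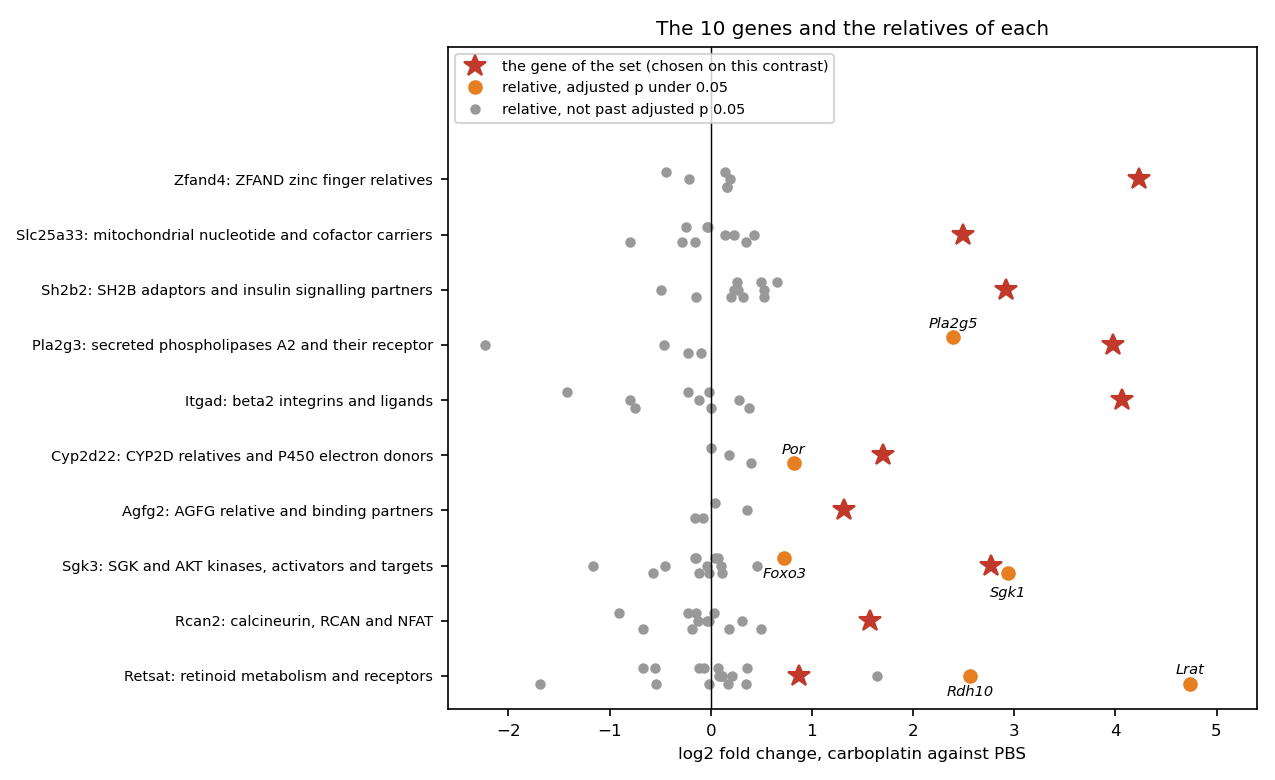
Log2 fold change in carboplatin against PBS of each of the 10 genes (stars) and of the tested relatives in its list (circles, larger and named where the adjusted p was under 0.05). The relatives lie on both sides of zero, and of the 6 named ones Sgk1, at 2.93, lies beside its relative Sgk3.

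The genes beside the 10 on the chromosome were tested as well. The nearest tested gene on each side and every tested gene overlapping one of the 10 made 23 neighbours, of which 4 were called higher in carboplatin and 0 lower by edgeR's quasi-likelihood test (2.09% of all genes were called), with a median log2 fold change of 0.029. For all 10 genes, both flanking genes had a smaller log2 fold change than the gene itself. The 10 were chosen on their high counts in carboplatin, so this outcome was likely in advance. Gm13068, an annotated antisense transcript on the opposite strand of Slc25a33, had 62.6, 59.5 and 68.0 CPM in carboplatin 1 to 3, 12.2, 11.6 and 9.62 CPM in selumetinib 1 to 3 and 9.28 to 13.5 CPM in PBS. Its log2 fold change was 2.46 ± 0.14 with an adjusted p of 1.4e-05, beside 2.49 for Slc25a33. The exons of both share 281 bases, which are 32.1% of Gm13068 and 14.9% of Slc25a33, and since the strand setting of the counting was not given, reads of one cannot be told apart from reads of the other.

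The other called neighbours were Fam21, Spsb1 and Selm. Fam21, a subunit of the endosomal WASH complex that ends 1535 bases before Zfand4, had 213, 162 and 224 CPM in carboplatin 1 to 3 against 59.7 to 117 CPM in PBS (log2 fold change 0.96 ± 0.20, adjusted p 0.0320). Spsb1, a ubiquitin ligase adaptor 122005 bases from Slc25a33, had a log2 fold change of 1.16 ± 0.26 (adjusted p 0.0447). Selm, a selenoprotein gene 15333 bases from Pla2g3, had 0.63 ± 0.12 (adjusted p 0.0223). Each of these 3 calls was lost in the fit without carboplatin 1 and in the fit without carboplatin 3, among others, whereas that of Gm13068 held in all 12 fits with a library left out.

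Some of the 10 overlap other genes or lie close to them. Inpp5j, a phosphoinositide phosphatase gene on the opposite strand of Pla2g3, shares 401 exon bases with it and had a log2 fold change of 0.89 ± 0.25 (adjusted p 0.0936). Cox6a2, a muscle gene of the respiratory chain, shares 70 exon bases with Itgad on the opposite strand. In PBS 1 it reached 1102 CPM. Itgad had 2.33 CPM there, its highest level outside the carboplatin libraries, which had 20.5 to 28.4 CPM. Retsat lies 61 bases from Elmod3, on the opposite strand, which had 43.4, 41.7 and 47.8 CPM in carboplatin 1 to 3 against 19.5 to 34.2 CPM in PBS. The log2 fold change of Elmod3 was 0.61 ± 0.17 and its adjusted p 0.101, next to 0.88 for Retsat. Tgoln1, 6 bases from the other end of Retsat, had 0.046 ± 0.23 (adjusted p 0.942) in the same edgeR test.

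**Figure D5:**
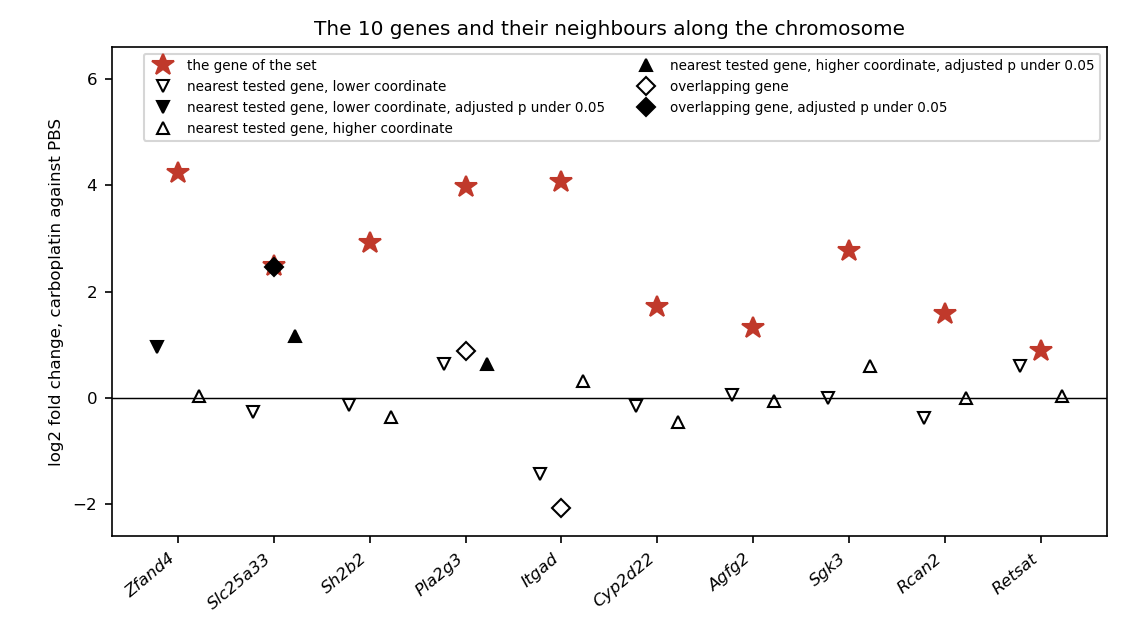
Log2 fold change in carboplatin against PBS of each of the 10 genes (stars), of the nearest tested gene on each side (triangles) and of tested overlapping genes (diamonds), filled where the adjusted p was under 0.05. The one neighbour as high as its gene is Gm13068, at 2.46 beside 2.49 for Slc25a33.

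The genes with the profile most like each of the 10 were found over the 12 libraries, as the smallest root mean square difference of centred log2 CPM (RMS). These are descriptions, because the profiles include the contrast on which the 10 were chosen. The nearest match of Retsat, Agfg2, Rcan2, Cyp2d22 and Sgk3 lay at an RMS of 0.13 to 0.22. Retsat lay nearest to Fam189a2 (RMS 0.13), Ifrd1 and Mettl7a1, and Agfg2 to Klhl36 (0.15), Ahcy and Fam214a. Rcan2 lay nearest to Tsc22d3 (0.18), which codes for the glucocorticoid-induced leucine zipper, then to Gatsl3 and Gpatch4. Cyp2d22 lay nearest to Nt5c3 (0.18), Bbc3 and Smox, and Sgk3 to Arrdc2 (0.22), Sult1a1 and Apod. As an example of the likeness, Apod, a lipocalin, averaged 9354 CPM in carboplatin, 864 in selumetinib and 1523 in PBS.

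The other 5 genes had looser matches. Sh2b2 lay nearest to Mfsd2a (RMS 0.29), Phactr3 and Nxph3, and Slc25a33 to Klf15 (0.37), Tma16 and Gpatch4. Pla2g3 lay nearest to Phactr3 (0.54), Gabrr2 and Arrdc2, Zfand4 to Hif3a (0.68), Fam107a and Phactr3, and Itgad to Sgk1 (0.66), Cdkn1a and Arl4d. Phactr3, a binding protein of actin and protein phosphatase 1, was among the nearest 3 of Zfand4, Sh2b2 and Pla2g3. Within the set, Cyp2d22 was nearest to Rcan2 (RMS 0.27) and to Agfg2 (0.28), and Itgad and Retsat were the farthest apart (1.62).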

How the data were processed

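Raw counts of reads per gene, not normalized, were deposited by the authors for the 12 libraries. Tools named in the submitters' processing notes are STAR and HTSeq, after FastQC and Trimmomatic, besides DESeq2, on build mm10. The sources used here do not give their versions, the annotation release or the strand setting. The mRNA was isolated with poly-T beads, per the labels' protocols. Of the IDs, 34490 are in GENCODE M21 (GRCm38), the source of coordinates, neighbours and exon lengths. Promoter sequences are those of RefSeq (GRCm38.p6).

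Libraries were grouped by their titles. Genes passing filterByExpr (minimum count 10, minimum total 15) numbered 18344 and were tested with edgeR 4.0.16 (R 4.3.3; TMM factors, robust quasi-likelihood fit of 3 groups over 12 libraries), with Benjamini-Hochberg adjustment over all of them and a threshold of 0.05. The SE is the absolute log2 fold change divided by the square root of the F statistic. CPM uses TMM-scaled totals, and log2 CPM a prior count of 2. The test was also run on simulated counts, drawn for every library from the same mean profile except for the changes put in. That run does not cover libraries that differ in tissue content, as PBS 1 does here. The members and lists were chosen with earlier results of these data known. Named were the 10 genes, relatives called or with the smallest p, the neighbours, the nearest 3 profiles, and some others of the lists, chosen after their values were seen. Some genes that this rule names are left out of the text. Alternatives were DESeq2 1.42.0, limma voom 3.58.1 with quality weights, other factors and filters, other control libraries, a replicate block and each library left out. The depth, 21793052 to 33375754 counts per library, leaves genes of a few CPM the least precise.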

Additional observations from a re-analysis of the deposited data

Results flagged for a closer look

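Dixon's test was applied to the 6 PBS values of 39 genes: the 10 genes, the 6 called relatives and the tested neighbours. It singled out 1 library in 10 of them, and chance gives about 1 gene in 20. In all 10 the library was PBS 1, the one with 5.63% muscle markers. Of the chosen genes this concerned Rcan2, at 505 CPM in PBS 1 and 339 to 390 CPM in the other PBS libraries. The rest were neighbours. PBS 1 was high for Tmem201 (95.5 CPM), Prkrip1 (19.7 CPM), Cux1 (155 CPM), Cox6a2 (1102 CPM, against 7.25 CPM at most in the other PBS libraries), Ndufa6 (232 CPM) and Cyp39a1 (23.8 CPM). It was low for Fam21 (59.7 CPM), Tgoln1 (165 CPM) and the gene that the table lists as 8-Mar (161 CPM), a symbol turned into a date, whose ID is that of March8. The part of muscle RNA in these values was not tested. Without PBS 1 the median log2 fold change of the 10 genes in carboplatin against PBS was 2.56.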

How the results depend on the processing

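Across 23 alternatives the median log2 fold change of the 10 genes in carboplatin against PBS lay between 2.54 and 2.76, and no gene of the 10 changed sign. Members called in selumetinib against PBS numbered 0, but 1 with DESeq2 and 5 with limma voom (0 to 1 with a library left out). Relatives called in carboplatin against PBS numbered 6, but 34 with limma voom, 2 with only the groups compared, 0 with PBS 1 to 3 and 11 with PBS 4 to 6 as controls, and 18 without PBS 1, selumetinib 1 and selumetinib 2 (0 to 9 with a library left out). Relatives called in selumetinib against PBS numbered 0, but 14 with DESeq2 and 60 with limma voom (0 to 28 with a library left out, the 28 without selumetinib 3). Neighbours called in carboplatin against PBS numbered 4, but 8 with DESeq2, 11 with limma voom, 1 with upper-quartile factors, 1 with PBS 1 to 3 as controls and 8 without PBS 1, selumetinib 1 and selumetinib 2 (1 to 7 with a library left out). Beside these counts stand the calls over all genes. In carboplatin against PBS, limma voom called 29.8% of all genes and DESeq2 8.99% of those with an adjusted p. Without PBS 1, which gave 9 relatives and 7 neighbours, 1941 genes were called in that contrast. In selumetinib against PBS, limma voom called 55.4% and DESeq2 13.7%. Without selumetinib 3, which gave 1 member and 28 relatives, 4089 genes were called. The causes were not tested. Some selumetinib estimates turned sign, and not only those near zero. Slc25a33 had -0.089 with PBS 1 to 3 as controls and -0.20 without PBS 1, selumetinib 1 and selumetinib 2 (-0.12 to 0.14 with a library left out). Without those 3 libraries Agfg2 had -0.049 (-0.031 to 0.088 with a library left out), Zfand4 -0.68 and Sh2b2 -0.26.

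Over all genes, the calls in carboplatin against PBS ran from 5 to 5470 and those in selumetinib against PBS from 0 to 10165. Deviations of same-numbered libraries correlated at -0.12 to 0.38 over genes, not over 0.1 in every pair, so the numbers were not taken to pair the samples. With the replicate block, 0 relatives and 1 neighbour were called in carboplatin against PBS and 0 members in selumetinib against PBS, the median of the 10 genes was 2.55, and Slc25a33 had -0.12 and Agfg2 -0.017 in selumetinib. At a few CPM, Itgad, Zfand4 and Pla2g3 rest on 8 to 184 reads per PBS library, which limits their fold changes.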
